A study of Mus musculus with 12 samples.

Results

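Genomic imprinting leaves a gene active on the allele inherited from only 1 parent, through DNA methylation set in the germ line. Of the imprinted genes, 10 were chosen by name: H19, Meg3, Rian, Mirg, Dlk1, Peg3, Plagl1, Ndn, Grb10 and Mest. A gene was included when its symbol matched exactly in the expression tables, and 6 of the 10 could be followed in all 12 libraries of the series: Dlk1, Peg3, Plagl1, Ndn, Grb10 and Mest. H19, Meg3, Rian and Mirg, the 4 long noncoding RNAs of the set, were not analysed here. The 6 genes stood among 16503 genes listed for the comparison of muscle stem cells (MuSCs) with myoblasts and 16169 genes listed for the comparison of genotypes.

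Libraries were made from 1000 cells each with SMART-seq. MuSCs were sorted by FACS from hindlimb muscle as ITGA7 positive cells lacking CD31, CD45, CD11b and SCA1. In the culture comparison, 3 WT mice of unstated age each gave 1 library of freshly sorted MuSCs and 1 library of primary myoblasts grown for 3 days in growth medium with serum and bFGF. In the genotype comparison, MuSCs were taken from males of 5 to 6 weeks, 3 WT and 3 Nedd4L-cKO. Nedd4L-cKO mice carry Nedd4L fl/fl and Pax7 cre/+ on a C57BL/6 background, so exon 15 of Nedd4l is removed in cells that express or once expressed Pax7, myofibers formed from them included. The exact genotype of the WT mice was not stated beyond that name.

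Values are the authors' normalized counts, scaled here to RPM, a level relative to the mean library total of each table. Normalized counts summed to between 33189802 and 37595659 per library in the culture table and to between 40323468 and 50687122 in the genotype table. Read depth itself is unknown, and the tables were normalized separately, so levels are set side by side across tables without a test. Nedd4l, the targeted gene, was at 70.2, 96.4 and 66.7 RPM in WT and at 30.2, 36.3 and 22.5 RPM in Nedd4L-cKO MuSCs, without overlap (limma adjusted p = 0.0467, and from 0.0533 to 0.210 under 10 of the alternative settings). MuSC markers summed to between 4951 and 9511 RPM in the 9 libraries of sorted MuSCs and to between 667 and 719 RPM in the 3 myoblast libraries. Pax7 was at 151 to 302 RPM in the former and 17.8 to 21.2 RPM in the latter. Myoblast markers summed to 1314 to 1598 RPM in MuSCs and 6425 to 7410 RPM in myoblasts of the culture cohort. Of these 6 markers, Des, Myod1 and Myog were higher in myoblasts (limma adjusted p of at most 0.05). Mki67, Ccnb1 and Top2a did not pass. Mki67 was at 66.5 to 110.2 RPM in MuSCs and 49.2 to 102 RPM in myoblasts of the culture cohort. In WT MuSCs of the genotype cohort it was at 12.7 to 63.5 RPM. The myoblast libraries also held myofiber markers, which summed to 8628, 12348 and 19724 RPM against 121, 346 and 219 RPM in the MuSCs of the same mice. Immune markers stayed at or below 5.62 RPM in sum in every library. The genotype cohort carried markers of mural cells (325 to 2179 RPM in sum) and of tenocytes (152 to 1135 RPM) in both genotypes, whereas freshly sorted MuSCs of the culture cohort had 9.62 to 19.1 RPM of mural markers. Of the 4 tenocyte markers, Scx and Mkx can be set side by side, and they summed to 10.9 to 11.5 RPM in MuSCs of the culture cohort, 13.9 to 29.3 RPM in WT and 7.31 to 11.7 RPM in Nedd4L-cKO MuSCs.

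Imprinted genes sit in clusters, where a methylated control region decides which allele of each neighbour is read. Many regulate growth, and several are known for roles in muscle precursors. Dlk1 encodes a transmembrane ligand related to those of Notch, Grb10 an adaptor that restrains insulin and IGF signalling, and Ndn and Peg3 proteins linked to cell survival and differentiation. Plagl1 encodes a zinc finger transcription factor, and Mest a protein of the alpha/beta hydrolase fold that hosts a microRNA in its intron. Grb10 is read mostly from the maternal allele outside the brain. The other 5 genes are read from the paternal allele. RNA-seq summed both alleles here, so no value below speaks of one allele.

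On GRCm39, Dlk1 lies on chromosome 12 from 109418749 to 109429262 on the + strand, and Plagl1 on chromosome 10 from 12936248 to 13007438 on the + strand. Grb10 occupies chromosome 11 from 11880498 to 11988683 on the - strand. Peg3 (6706882 to 6733468, - strand) and Ndn (61995473 to 62000010, + strand) are both on chromosome 7. Mest runs on chromosome 6 from 30723546 to 30752058 on the + strand. All 6 genes are annotated as protein coding. Of the exonic bases of Mest in GENCODE M39, 47.7% are also exonic in Copg2 on the opposite strand. The values were estimated on an earlier GENCODE basic annotation, in which the overlap was not measured. The parameters given for kallisto hold no strand option, so reads in the shared bases may belong to either gene. None of the other 5 genes shares exonic bases with another protein-coding gene in this annotation.

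Mest hosts Mir335. Its mature forms are shown because the host gene had the largest increase of the 6 from MuSCs to myoblasts. The microRNA itself was not measured. Sequences are from RefSeq on GRCm38.p6, 5′ to 3′, with the seed (bases 2 to 8) in capitals.
miR-335-5p: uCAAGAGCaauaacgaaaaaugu
miR-335-3p: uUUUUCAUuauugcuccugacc

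Promoter windows of 300 bases, also from RefSeq on GRCm38.p6, were searched on both strands for GGGGCCCC, a motif reported for the Plagl1 protein, and for CAGCTG, an E-box that MyoD family factors bind. The former was in 1.08% of 32851 windows over all genes and in 1 of 13 windows of the chosen genes, that of Peg3. The latter was in 16.3% of all windows and in 1 of these 13, the first of 3 windows of Mest. A match is a run of letters and not evidence of binding. The 2 windows with a match are each given on the strand of the gene with the motif in capitals, at chr7:6730370-6730669 for Peg3 and at chr6:30733256-30733555 for Mest.
Peg3: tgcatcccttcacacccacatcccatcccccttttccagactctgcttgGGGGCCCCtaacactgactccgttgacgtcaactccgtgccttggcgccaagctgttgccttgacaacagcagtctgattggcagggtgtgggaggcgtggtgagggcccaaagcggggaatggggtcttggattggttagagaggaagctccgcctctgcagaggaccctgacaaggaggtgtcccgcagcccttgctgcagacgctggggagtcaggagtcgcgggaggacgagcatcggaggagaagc
Mest: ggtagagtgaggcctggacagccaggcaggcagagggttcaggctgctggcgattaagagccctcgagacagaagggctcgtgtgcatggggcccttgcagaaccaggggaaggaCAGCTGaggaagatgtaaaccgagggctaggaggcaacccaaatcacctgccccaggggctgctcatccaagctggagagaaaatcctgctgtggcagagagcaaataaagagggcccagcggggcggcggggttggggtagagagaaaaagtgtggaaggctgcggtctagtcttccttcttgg

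The windows also differed in CpG content. Plagl1 had 26 CpG sites in its window and the second window of Grb10 had 45, against a median of 7 over all genes. The windows of Dlk1 and Ndn, with 9 and 11 sites, were close to that median.

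Levels can be compared between genes only per length, and here RPM was divided by the exonic length in kilobases. This length merges the exons of all annotated transcripts of a gene. It can exceed the length of the transcripts present in the cells, and the order of the genes depends on it. In freshly sorted MuSCs of the culture cohort, Grb10 had the highest level of the 6 (52.0 ± 12.2 RPM per kb, SD, n = 3). Peg3 (27.1 ± 5.38, SD, n = 3) and Mest (27.1, from 19.3 to 39.1) followed with overlapping ranges. Plagl1 was at 10.1 ± 1.55 RPM per kb (SD, n = 3), Ndn at 6.32 ± 2.61 and Dlk1 at 4.95 ± 2.53 (SD, n = 3). The ranges of Plagl1 and Ndn overlapped, as did those of Ndn and Dlk1, whereas Mest lay above Plagl1 in every library. In myoblasts, Mest led at 135 ± 34.9 RPM per kb (SD, n = 3), above the range of Peg3 (44.2 ± 10.6, SD, n = 3). Grb10, Ndn and Plagl1 followed at 12.6, 10.3 and 9.40 RPM per kb, again with neighbouring ranges that overlapped, and Dlk1 was last at 0.647 RPM per kb. In WT MuSCs of the genotype cohort the order was Peg3, Grb10, Mest, Plagl1, Ndn and Dlk1, with means from 39.6 to 0.598 RPM per kb. The ranges of Peg3 and Grb10 overlapped, as did those of Grb10 and Mest, and Dlk1 lay below all others.

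**Figure D1:**
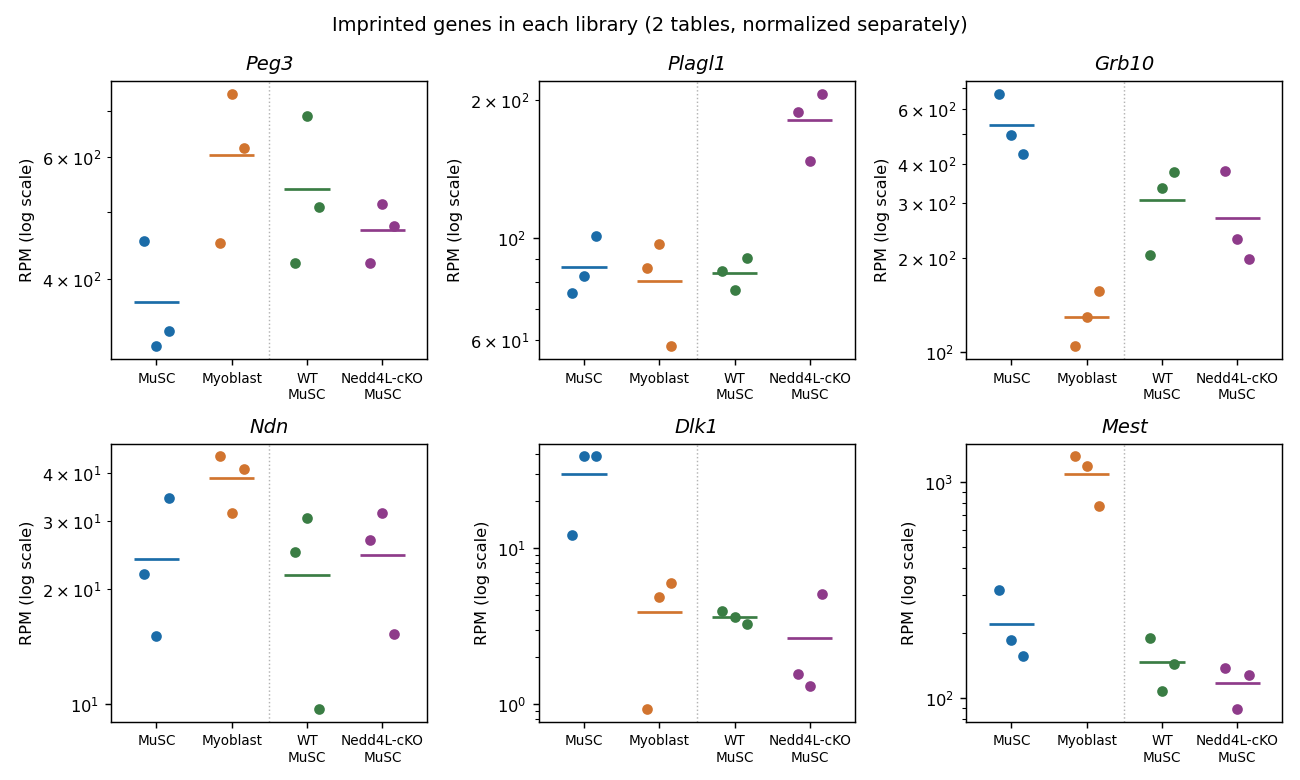
RPM of each gene on a log axis in every library, with points for libraries and lines for group means; a dotted line separates the tables, which were normalized separately. Mest rose from 156 to 315 RPM in MuSCs to 774 to 1311 RPM in myoblasts, Grb10 and Dlk1 were lower in myoblasts, and Plagl1 alone of the 6 had separate ranges in WT and Nedd4L-cKO MuSCs.

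The first comparison asked how the genes differ between freshly sorted MuSCs and the myoblasts grown from the same mice. Mest and Peg3 were higher in myoblasts, Grb10 and Dlk1 were lower, and Ndn and Plagl1 did not pass the test. That made 4 of 6 genes called at a limma adjusted p of at most 0.05, against 42.8% of the 15345 genes tested. The background is high, so the count alone does not set these genes apart. By direction, 22.2% of all tested genes were higher and 20.6% lower in myoblasts. Ranges were separate for 3 of the 6 genes, against 55.2% of all tested genes. Fold changes are on the log2(RPM + 1) scale, which understates changes near 0, and fewer cells of a type and less RNA per cell cannot be told apart in bulk libraries.

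Among the growth regulators, Grb10 was at 672, 494 and 432 RPM in MuSCs and at 104, 129 and 156 RPM in myoblasts. Every MuSC library was above every myoblast library. The mean fell 4.11-fold, from 533 ± 125 to 129.7 ± 25.9 RPM (SD, n = 3), and the log2 fold change was -2.02 (SE 0.23 and adjusted p = 0.000189 in limma). It was lower in the myoblasts of 3 of 3 mice.

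Dlk1, which marks and influences myogenic precursors, was at 12.2, 38.7 and 38.7 RPM in MuSCs and at 0.928, 4.83 and 5.96 RPM in myoblasts. The groups did not overlap, and mouse 04 had the lowest value in both. The log2 fold change was -2.69 (SE 0.59 and adjusted p = 0.00632 in limma), and within the 3 mice it ran from -2.78 to -2.51. The 1 RPM added before the logarithm narrows this range, since the myoblasts of mouse 04 were themselves below 1 RPM. With 0.1 RPM added, the log2 fold change was -3.08. The mean fell from 29.9 ± 15.3 to 3.90 ± 2.64 RPM (SD, n = 3).

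Mest, a gene of mesodermal tissue, was at 315, 185 and 156 RPM in MuSCs and at 1311, 1188 and 774 RPM in myoblasts. All myoblast libraries were above all MuSC libraries. The mean rose 4.99-fold, with a log2 fold change of 2.35 (SE 0.30 and adjusted p = 0.00036 in limma), and was higher in 3 of 3 mice. Copg2, with which Mest shares exonic bases, was at 40.1 ± 5.29 RPM in MuSCs and 46.2 ± 18.4 RPM in myoblasts (SD, n = 3), with a log2 fold change of 0.13 (limma adjusted p = 0.764). The myoblast library with the most myofiber marker RNA, at 19724 RPM in sum, had the least Mest, 774 RPM, and the part of these markers in the difference was not tested.

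Peg3, a zinc finger protein gene expressed in MuSCs and their niche, was at 455, 320.3 and 337 RPM in MuSCs and at 452, 741 and 619 RPM in myoblasts. The groups overlapped, since mouse 04 had nearly the same level in both of its libraries (log2 difference -0.01). The log2 fold change was 0.69 (SE 0.23 and adjusted p = 0.0384 in limma) and it was higher in 2 of 3 mice. With the mouse as a replicate block the limma adjusted p was 0.0706, above the threshold. The call was also lost without MuSC replicate 05 or 06 (limma adjusted p = 0.131 and 0.112) or myoblast replicate 05 or 06 (0.145 and 0.0984).

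Ndn, which encodes necdin, a protein of the MAGE family, was at 21.9, 15.1 and 34.6 RPM in MuSCs and at 44.3, 31.5 and 41.1 RPM in myoblasts. One MuSC library lay inside the myoblast range, although the level was higher in myoblasts within each of the 3 mice. The log2 fold change was 0.75 (95% interval 0.02 to 1.47, limma adjusted p = 0.0905). Without MuSC replicate 06 it was 1.04 and passed (limma adjusted p = 0.0348). Plagl1 was at 75.9, 82.5 and 101 RPM in MuSCs and at 86.1, 97.1 and 58.0 RPM in myoblasts. The groups overlapped throughout, with a log2 fold change of -0.13 (95% interval -0.68 to 0.42, limma adjusted p = 0.698) whose sign turned when each library was scaled to its own total.

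**Figure D2:**
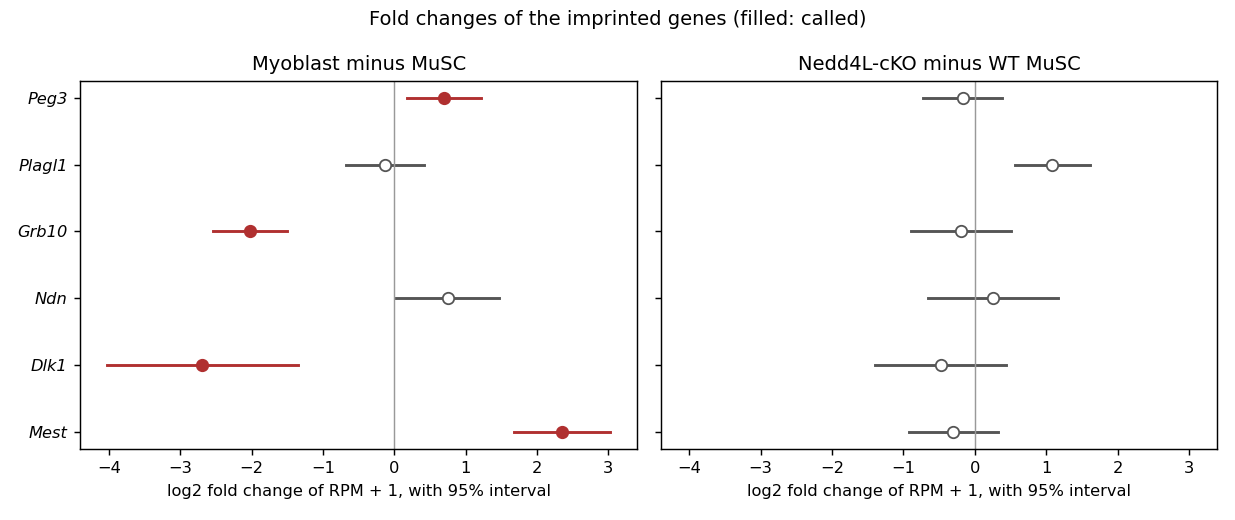
Log2 fold change of RPM + 1 (horizontal axis) for each of the 6 genes in both comparisons, with the 95% interval from limma as a line; filled points were called. Mest (2.35), Peg3 (0.69), Grb10 (-2.02) and Dlk1 (-2.69) were called between myoblasts and MuSCs, and none of the 6 was called between genotypes, where Plagl1 (1.08) lay farthest from 0.

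Neighbours in the same imprinted clusters were then examined. Igf2, the paternally expressed growth factor that lies 70.5 kb from H19, was at 72.9, 53.3 and 57.7 RPM in MuSCs and at 181, 392 and 398 RPM in myoblasts. All myoblast libraries were higher, with a log2 fold change of 2.31 (SE 0.31 and adjusted p = 0.000504 in limma). The lowest of these, 181 RPM, was in the myoblast library with the least myofiber marker RNA, and the part of these markers was not tested. In the Dlk1 cluster, the retrotransposon-derived gene Rtl1 was near 0 in every library, at 0.186 to 0.519 RPM in the culture table. Its span overlaps that of Rian on the other strand.

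In the cluster of Ndn, Snrpn, which encodes a spliceosomal protein, rose from 13.1 ± 4.32 to 45.5 ± 8.59 RPM (SD, n = 3, log2 fold change 1.76, limma adjusted p = 0.00216). Mkrn3, a gene for a RING finger protein, rose from at most 1.34 RPM to between 4.64 and 6.47 RPM (log2 fold change 2.30, limma adjusted p = 0.00157). Peg12, a homologue of the Wnt pathway gene Frat, fell from 86.0 ± 1.46 to 35.0 ± 15.7 RPM (SD, n = 3, limma adjusted p = 0.00734). The maternally expressed ubiquitin ligase gene Ube3a was at 90.2 ± 15.3 and 116 ± 25.2 RPM (SD, n = 3, limma adjusted p = 0.251). Genes of 1 cluster with the same expressed allele thus differed in opposite directions.

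The neighbours of Peg3 did not pass the test. Usp29, which starts 108 bases from the Peg3 gene and is read from the same allele, was at 41.3, 19.9 and 32.6 RPM in MuSCs and at 14.6, 21.8 and 20.6 RPM in myoblasts (log2 fold change -0.65, limma adjusted p = 0.133). Zim1, read from the maternal allele, was at 28.3 ± 3.36 and 34.5 ± 6.20 RPM (SD, n = 3, limma adjusted p = 0.398). Klf14, a maternally expressed gene 181 kb from Mest, was near 0, at 2.23 RPM or less.

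Beyond the chosen genes, a list of 46 other imprinted genes was examined, of which 32 were tested in the culture table. Of these, 16 were called, 4 higher and 12 lower in myoblasts, which is 50% against 42.8% of all tested genes. Their median log2 fold change was -0.50, against 0.04 over all tested genes. Outside the clusters above, Calcr, the calcitonin receptor that maintains MuSC quiescence, had the largest difference (log2 fold change -7.38). Slc38a4, an amino acid transporter, was also lower (-3.97). The order of the genes after Calcr depends on the pseudocount, since with 0.1 RPM Dcn (-5.83), Nap1l5 (-5.46) and Tfpi2 (-5.20) came before Slc38a4 (-4.50). Calcr was at 289, 141 and 166 RPM in MuSCs and at most 0.295 RPM in myoblasts. Cdkn1c, which encodes the cell cycle inhibitor p57, fell from 799, 862 and 551 RPM to 25.5, 109.8 and 154 RPM (log2 fold change -3.24, limma adjusted p = 0.002). Also lower were Nap1l5 (-3.83), Tfpi2, a protease inhibitor (-3.25), Sgce, the epsilon sarcoglycan (-2.94), Ppp1r9a (-2.49) and Commd1 (-1.53). Nnat, which encodes neuronatin, was higher, at 2.01 ± 0.262 RPM in MuSCs and 14.0 ± 7.30 RPM in myoblasts (SD, n = 3, log2 fold change 2.21, limma adjusted p = 0.00226). Dcn, the proteoglycan decorin, was lower (-3.88), at 5.75, 46.1 and 19.8 RPM in MuSCs and at most 0.702 RPM in myoblasts. Dcn is also a gene of fibroblasts. Of the 6 fibroadipogenic markers, Pdgfra, Ly6a and Pi16 were each at 2.83 RPM or less in all 12 libraries, whereas Col3a1 was at 969.7 to 1725 RPM and Dpt at 232 to 507 RPM in sorted MuSCs. All 6 markers summed to 2020 to 2189 RPM in MuSCs and 122 to 192 RPM in myoblasts of the culture cohort. Lum was at 1.98 RPM or less there. In the genotype cohort, Dcn was at 1091, 193 and 1237 RPM in WT and at 2208, 672 and 210 RPM in Nedd4L-cKO MuSCs, and Lum was at 25.5, 3.11 and 45.1 RPM and at 63.2, 23.2 and 9.69 RPM, so both had their highest and lowest values in the same libraries. The part of these markers in the Dcn values was not tested.

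Split by the allele known to be expressed, the chosen and other imprinted genes gave 14 maternally expressed genes tested, of which 7 were lower in myoblasts, 0 were higher and 7 did not pass. Of 22 paternally expressed genes, 6 were higher, 6 were lower and 10 did not pass. The shares called, 50% and 54.5%, were near the 42.8% of all tested genes, of which 20.6% were lower and 22.2% higher. The median log2 fold changes were -1.12 and 0.03, against 0.04 over all tested genes. No test of this split was made, and neighbours such as Calcr, Tfpi2 and Ppp1r9a share a cluster. Some of the genes, among them Dcn and Ube3a, are known to be imprinted only in certain tissues, and imprinting in MuSCs was not measured.

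**Figure D3:**
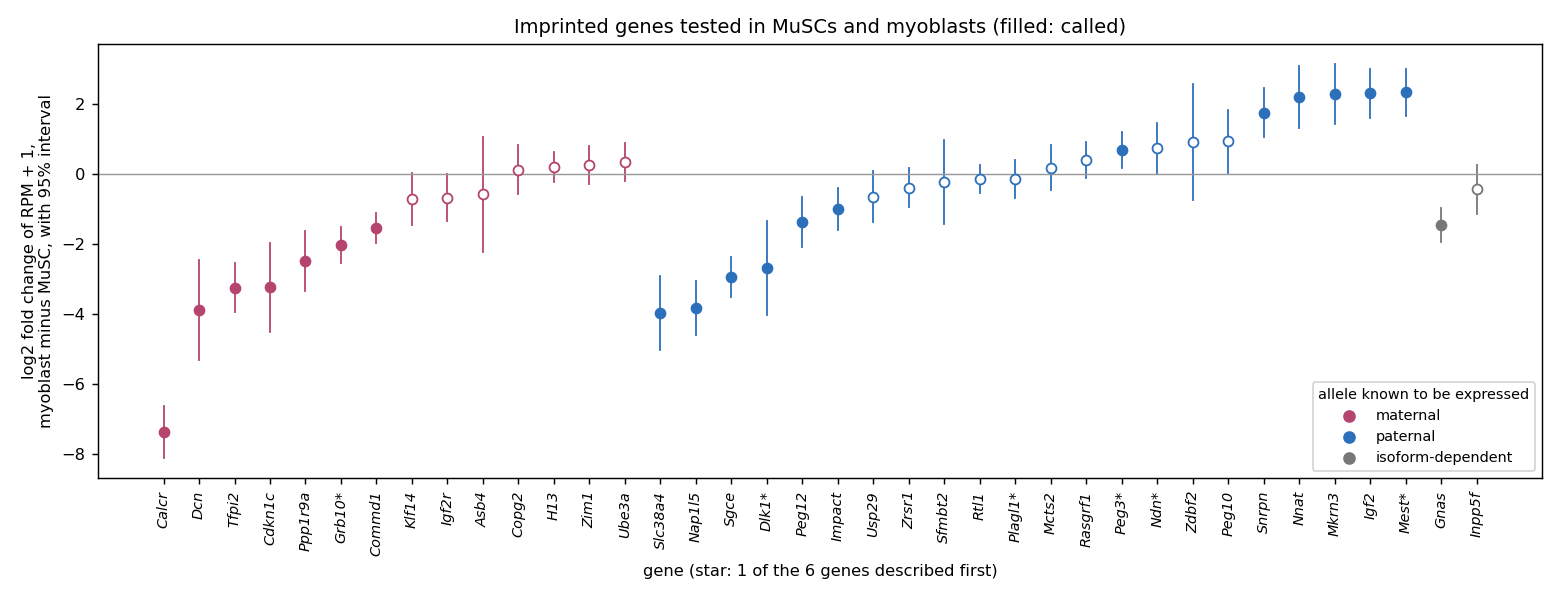
Log2 fold change of RPM + 1 between myoblasts and MuSCs (vertical axis, with the 95% interval from limma) for every imprinted gene tested, ordered within the allele known to be expressed; filled points were called. All 7 called maternally expressed genes lie below 0, and called paternally expressed genes lie on both sides, 6 above and 6 below. Of the 7, Calcr, Tfpi2 and Ppp1r9a share a cluster, and imprinting in MuSCs was not measured.

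The second comparison asked whether loss of Nedd4L, an E3 ubiquitin ligase, in MuSCs was accompanied by a difference in these genes. A call needed a limma adjusted p of at most 0.05, a log2 fold change of 1 or more in either direction and 5 RPM or more on average. None of the 6 was called, against 0.653% of the 15304 genes tested. At an unadjusted limma p under 0.05 there was 1 of the 6, Plagl1, against 14.6% of all tested genes (2239). The other 5 genes overlapped between the genotypes, and Plagl1 did not, against 19.3% of all tested genes with separate ranges.

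Plagl1 was at 84.7, 77.0 and 90.2 RPM in WT and at 188, 147 and 206 RPM in Nedd4L-cKO MuSCs. Every Nedd4L-cKO library was above every WT library, which an exact two-sided permutation test gives p = 0.1, the smallest that 3 against 3 allow. The mean was 2.15-fold higher (83.9 ± 6.59 and 180.3 ± 30.1 RPM, SD, n = 3). The log2 fold change was 1.08 (SE 0.24, 95% interval 0.56 to 1.61, limma adjusted p = 0.0648), and the gene therefore was not called. Across the 14 alternative settings it stayed between 0.95 and 1.22, with adjusted p from 0.0400 to 0.284. The setting that passed required 10 normalized counts in each of the 6 libraries. Per length, Plagl1 ranked above Mest in Nedd4L-cKO MuSCs, at 21.1 against 14.6 RPM per kb, and below it in WT MuSCs, at 9.81 against 18.1 RPM per kb.

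Mural cell markers moved in the same direction. Their sum was 325, 631 and 1190 RPM in WT and 489.8, 1406 and 2179 RPM in Nedd4L-cKO MuSCs, mostly from Rgs5. All 4 markers of the list had higher means in Nedd4L-cKO MuSCs, with 1.11 as their median log2 fold change. By limma, 0 of the 4 were called, against 0.653% of all tested genes, and 3 had an unadjusted p under 0.05, against 14.6%. The WT library with 1190 RPM of mural markers had 90.2 RPM of Plagl1, and the Nedd4L-cKO library with 489.8 RPM had 188 RPM. In the culture cohort, with mural sums of 8.98 to 23.6 RPM, Plagl1 was at 58.0 to 101 RPM. Myofiber markers were at 345, 162 and 176 RPM in WT and 495, 441 and 399 RPM in Nedd4L-cKO MuSCs, which did not overlap, with 0 of 6 called and 4 of 6 at an unadjusted p under 0.05. Of single genes, 19.3% of all tested had separate ranges. Median log2 fold changes were below 0 for the Schwann cell (-0.67), tenocyte (-0.66) and endothelial markers (-0.33), with 0 called. Of the 8 MuSC markers, 1 was called, against 0.653% of all tested genes. This was Cd34, at 267, 349 and 243 RPM in WT and 116, 102 and 62.5 RPM in Nedd4L-cKO MuSCs (adjusted p = 0.0293 in limma). Among the 8, 25% had a positive log2 fold change. An unadjusted limma p under 0.05 was reached by 2 of the 8, 0 higher and 2 lower, against 14.6% of all tested genes. Spry1 was lower in every Nedd4L-cKO library, at 56.2, 61.5 and 147 RPM against 203, 338 and 201 RPM in WT, and was not called. Vcam1 was higher in every Nedd4L-cKO library, at 815, 696 and 658 RPM against 425, 574 and 534 RPM in WT, and was not called. Of the 6 myoblast markers, 1 was called, the cyclin gene Ccnb1, at 32.8, 11.0 and 9.93 RPM in WT and 91.6, 63.4 and 71.3 RPM in Nedd4L-cKO MuSCs (adjusted p = 0.0325 in limma). The sums of the MuSC markers and of the myoblast markers overlapped between the genotypes. The part of these markers in the Plagl1 values was not tested.

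**Figure D4:**
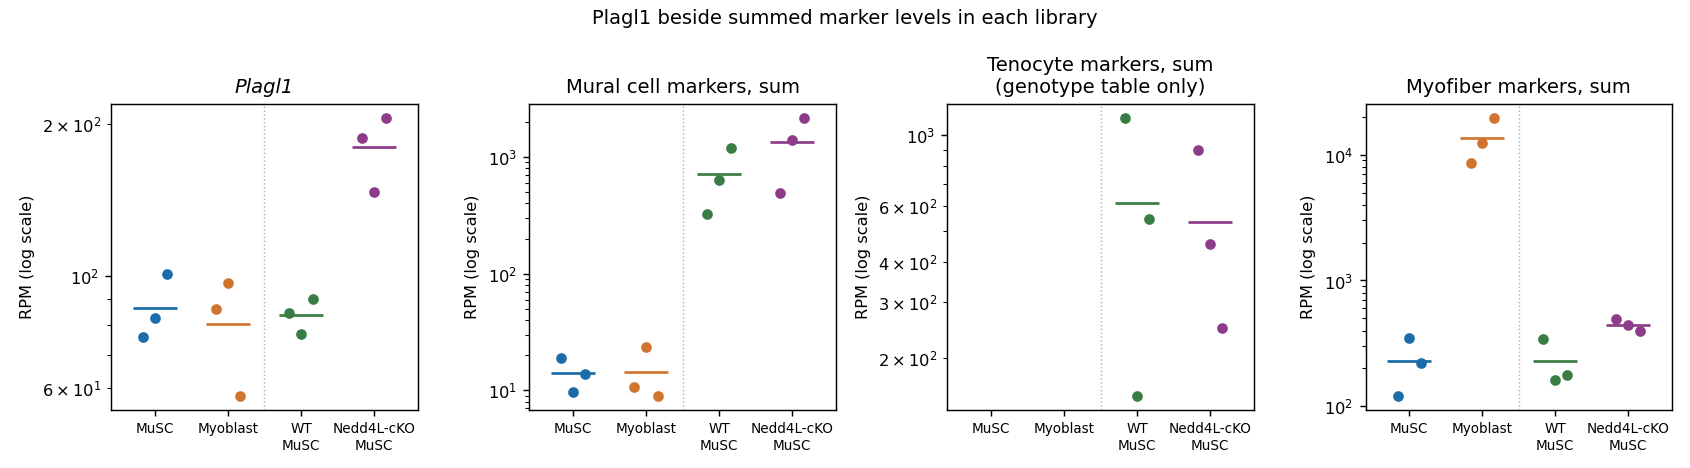
RPM of Plagl1 and summed RPM of mural cell, tenocyte and myofiber markers on log axes by library (tenocyte markers in the genotype table only), with points for libraries and lines for group means; the dotted line separates the tables. Plagl1 and the myofiber sum are separate between WT and Nedd4L-cKO MuSCs, the mural and tenocyte sums overlap, and the mural sum is 9.62 to 19.1 RPM in MuSCs of the culture cohort.

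The other genes gave small differences with wide intervals. Peg3 was at 423, 689 and 509 RPM in WT and at 423, 514 and 477 RPM in Nedd4L-cKO MuSCs (log2 fold change -0.17, 95% interval -0.72 to 0.38, limma adjusted p = 0.797). Grb10 was at 204, 336 and 378 RPM in WT and at 379, 229 and 198 RPM in Nedd4L-cKO MuSCs (log2 fold change -0.20, 95% interval -0.89 to 0.50, limma adjusted p = 0.817). Mest was at 188, 107 and 143 RPM and at 137, 88.5 and 127 RPM (log2 fold change -0.30, 95% interval -0.92 to 0.32, limma adjusted p = 0.669). In all 3 genes the ranges overlapped.

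Ndn was at 25.0, 30.6 and 9.72 RPM in WT and at 26.8, 31.5 and 15.3 RPM in Nedd4L-cKO MuSCs (log2 fold change 0.25, 95% interval -0.66 to 1.16, limma adjusted p = 0.825). Replicate 03 had the lowest level in both genotypes, although these are different mice. Dlk1 was at 3.97, 3.61 and 3.24 RPM in WT and at 1.55, 1.30 and 5.07 RPM in Nedd4L-cKO MuSCs (log2 fold change -0.48, 95% interval -1.40 to 0.43, limma adjusted p = 0.636). The Nedd4L-cKO values lay on both sides of the WT values. WT MuSCs of this cohort had 3.24 to 3.97 RPM of Dlk1 and MuSCs of the culture cohort 12.2 to 38.7 RPM, a gap that was not tested because the tables, and possibly the ages, differ.

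Of 31 other imprinted genes tested between the genotypes, 0 were called by limma, against 0.653% of all tested genes. An unadjusted p under 0.05 was reached by 7 of the 31, 2 higher and 5 lower in Nedd4L-cKO MuSCs, and by 14.6% of all tested genes. Igf2 was at 31.6, 28.8 and 17.2 RPM in WT and at 40.2, 42.0 and 51.6 RPM in Nedd4L-cKO MuSCs, without overlap (log2 fold change 0.80, limma adjusted p = 0.244). Snrpn was also separate, at 12.5 ± 0.510 and 8.57 ± 0.954 RPM (SD, n = 3, log2 fold change -0.51, limma adjusted p = 0.463), as was Ube3a, at 82.7, 114 and 119.8 RPM in WT and 142, 156 and 137 RPM in Nedd4L-cKO MuSCs (log2 fold change 0.47, limma adjusted p = 0.405). Ranges of the genotypes were separate for 19.3% of all tested genes. Peg12 was at 30.8 ± 11.7 and 12.7 ± 9.57 RPM (SD, n = 3, log2 fold change -1.40, limma adjusted p = 0.238). Usp29 and Zim1 were at 33.3 and 60.8 RPM in WT and at 18.5 and 45.0 RPM in Nedd4L-cKO MuSCs, and neither was called (limma adjusted p = 0.355 and 0.5). Copg2, at 46.5 and 36.5 RPM, was not called either (limma adjusted p = 0.587). Rtl1 and Klf14 were at or below 0.924 RPM.

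Tfpi2 and Calcr, named after their values were seen, were the imprinted genes outside these clusters that were closest to the threshold. Tfpi2 was at 19.6, 12.7 and 15.6 RPM in WT and at 41.2, 48.3 and 30.9 RPM in Nedd4L-cKO MuSCs (log2 fold change 1.28, SE 0.29, limma adjusted p = 0.0708). Calcr was at 268, 304 and 254 RPM in WT and at 117, 204 and 131 RPM in Nedd4L-cKO MuSCs (log2 fold change -0.90, SE 0.27, limma adjusted p = 0.152). Both had separate ranges, as did 19.3% of all tested genes. Tfpi2 passed (adjusted p = 0.0387 in limma) when 10 normalized counts were required in each library, and under the other alternatives its adjusted p was 0.0651 to 0.283. Set side by side, Tfpi2 was lower in myoblasts and had a higher mean in Nedd4L-cKO MuSCs, whereas Calcr had lower means in both. The paper, with DESeq2 and another adjustment of p-values, names Calcr among its most significant decreases in Nedd4L-cKO MuSCs. By the limma test used here Calcr was not called, and its log2 fold change of -0.90 also fell short of the limit of 1 in either direction.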

How the data were processed

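SMART-seq libraries of 1000 cells were grouped by the sample labels (3 per group, 12 in all). The authors used kallisto 0.46.1 with a GENCODE basic annotation to estimate transcript abundance, tximport to collapse it to genes and DESeq2 to normalize it. The deposited values used here are a signal, namely these normalized counts. The RPM columns deposited by the authors hold a score that was not used, because their divisor varied between genes of a library, and columns with the authors' own fold changes and p-values were not used either.

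Dividing by the mean of a table's 6 library totals gave RPM. Genes reaching 10 normalized counts in 3 or more libraries were tested on log2(RPM + 1) with limma 3.58.1 in R 4.3.3 (mean-variance trend, robust moderation) and adjusted by Benjamini-Hochberg over every gene tested. A call needed an adjusted p no higher than 0.05 and, between genotypes, also a log2 fold change of 1 or more in either direction and 5 RPM or more on average. The planned count model was not used, since values are not raw counts. The test was checked on simulated data with known changes.

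Both libraries of a culture cohort mouse share its number in the labels and pair by animal; their deviations from the group means correlated at -0.0314, -0.0050 and 0.0180 across genes. WT and Nedd4L-cKO libraries with 1 number are different mice.

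The chosen genes and the lists of imprinted genes, maintenance factors and markers were fixed with earlier results of these data known. The text names all chosen genes, imprinted genes of the same clusters, up to 10 called imprinted genes outside them per comparison, and called maintenance factors. A measure of likeness to H19 and to Meg3 and the ratios of Rian and Mirg to Meg3 were not computed, as these genes were not analysed here. Gene positions and exonic lengths came from GENCODE M39 on GRCm39 and sequences from RefSeq on GRCm38.p6. Alternatives were a pseudocount of 0.1 RPM, TMM factors, own library totals, other filters and thresholds, a replicate block, limma without trend and robust options, and each library left out.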

Additional observations from a re-analysis of the deposited data

How the results depend on the processing

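Read depth is unknown, so no counting interval could be given, and 3 libraries per group limit what could be called. Between myoblasts and MuSCs, Grb10, Dlk1 and Mest kept their direction and their call under all 14 alternatives; the number of the 6 genes called was 3 or 4 and the number of all genes called ran from 4880 to 6911, from 5033 to 6911 with 1 library left out. Besides the block, leaving out 4 single libraries and a fold limit, Peg3 lost its call without trend and robust options (limma adjusted p = 0.0711). Plagl1 turned to 0.0079 with own totals and to 0.0880 without myoblast replicate 06 (range with 1 library left out -0.2785 to 0.0880), and Copg2 to -0.1510 without myoblast replicate 04 (-0.1510 to 0.4371). Own totals moved the median log2 fold change of all genes from 0.039 to 0.141.

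Between genotypes, 100 genes were called, 195 when 10 normalized counts were required in each library (among them 1 of the 6, Plagl1), 62 with the replicate block and 41 without trend and robust options. With 1 library left out the number ran from 17 (without Nedd4L-cKO replicate 02) to 106, with 59 without WT replicate 01, 32 without WT replicate 02 and 44 without Nedd4L-cKO replicate 01, and 0 of the 6 genes were called in any of these fits. The called genes split into 69 higher and 31 lower, and into 49 and 38 with own totals. Reversed signs, all of genes not called, were those of Klf14 (0.2020 with a pseudocount of 0.1, 0.0943 without Nedd4L-cKO replicate 02 and -0.2218 to 0.2134 over the libraries left out), Peg3 (-0.3338 to 0.0173) and Rtl1 (-0.2383 to 0.0272) without WT replicate 02, and Ndn (-0.2230 to 0.5563) without WT replicate 03. The causes were not tested. Same-numbered WT and Nedd4L-cKO libraries are different mice, and their deviations correlated at 0.0192, -0.0232 and -0.1810. Apart from Peg3 in the culture comparison, the replicate block changed no call among the 6 genes. Ratios within the Meg3 cluster were not run.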

Other observations

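Factors that set or maintain methylation imprints were also measured. Of 12 tested in the culture table, 3 were higher and 3 lower in myoblasts at a limma adjusted p of at most 0.05, which is 50% against 42.8% of all tested genes. Uhrf1, which recruits the maintenance DNA methyltransferase to newly replicated DNA, was at 7.33, 21.4 and 29.3 RPM in MuSCs and at 144, 95.5 and 59.6 RPM in myoblasts (log2 fold change 2.41, limma adjusted p = 0.00433). Zfp57, a zinc finger protein that protects imprints in the embryo, was at 4.96, 2.25 and 1.81 RPM in MuSCs and at 14.8, 15.7 and 15.4 RPM in myoblasts (log2 fold change 2.10, limma adjusted p = 0.00183). Dnmt1, the maintenance methyltransferase, was higher by 0.74 on the log2 scale (limma adjusted p = 0.0472), a call lost with a fold limit, with no filter on low values (0.0502), without trend and robust options (0.0567), with the replicate block (0.0934) and without MuSC replicate 04 or 05 or myoblast replicate 04 or 05 (0.0973 to 0.144).

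The dioxygenase genes Tet1 and Tet2, whose products oxidise 5-methylcytosine, were lower in myoblasts. Tet2 fell from 152, 106 and 139 RPM to 13.7, 24.2 and 23.4 RPM (log2 fold change -2.66, limma adjusted p = 0.00011), and Tet1 from 27.2 ± 3.18 to 3.80 ± 3.05 RPM (SD, n = 3, log2 fold change -2.84, limma adjusted p = 0.00355). The third member, Tet3, was at 24.9 ± 5.68 and 19.5 ± 13.5 RPM (SD, n = 3, limma adjusted p = 0.393). The de novo methyltransferase gene Dnmt3a fell by 1.15 on the log2 scale (limma adjusted p = 0.0234), a call lost without MuSC replicate 04 (0.0669) or 06 (0.0737). Between the genotypes, 0 of 12 were called by limma, against 0.653% of all tested genes, and 1, Zfp57, had an unadjusted p under 0.05, against 14.6% of all tested genes (1.45 ± 0.634 RPM in WT and 0.514 ± 0.255 RPM in Nedd4L-cKO MuSCs, SD, n = 3, limma adjusted p = 0.313).

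Gnas and Impact, named after their values were seen, complete the called imprinted genes of the culture comparison. Gnas, which encodes the stimulatory G protein alpha subunit and is imprinted by isoform, fell from 1833 ± 117 to 681 ± 175 RPM (SD, n = 3, limma adjusted p = 0.000748). Impact fell from 173 ± 60.8 to 82.9 ± 7.05 RPM (SD, n = 3, limma adjusted p = 0.0152), a call lost without MuSC replicate 06 (0.0524) or myoblast replicate 05 (0.0585).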
